A study of Mus musculus with 18 samples.

Results

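The transcripts of 6 genes of the renin-angiotensin system, Ren1, Agt, Ace, Enpep, Mme and Agtr1a, were followed among the 24602 genes of a mouse RNA-seq count table. They were taken by gene symbol as members of the pathway. The study sequenced nuclear and total RNA from mice that were wild type for Nup93 (WT), heterozygous for its R388W allele (Het, Nup93 R388W/+) or homozygous for it (Hom, Nup93 R388W/R388W). Nup93 encodes a scaffold protein of nuclear pores. The 18 libraries form 6 groups of 3, named here Nuclear_WT, Nuclear_Het, Nuclear_Hom, Total_WT, Total_Het and Total_Hom. The mice were knock-in animals of the strain the series title writes as 129S1/SvlmJ. Treatment, age and sex were not stated. Whether replicate libraries stem from different animals was not stated either, and p-values here then reflect only variation among libraries, which may be technical.

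In the renin-angiotensin system, the protease renin cuts angiotensinogen (Agt) to angiotensin I, and angiotensin-converting enzyme (Ace) shortens this to angiotensin II. Angiotensin II acts mainly through the type 1 receptor, which in mice is encoded chiefly by Agtr1a, and it is broken down by aminopeptidase A (Enpep). Neprilysin (Mme) cleaves angiotensin I to the shorter angiotensin 1-7 and also degrades natriuretic peptides. In the kidney, renin is made by juxtaglomerular cells of the afferent arteriole, while Ace, Enpep and Mme are abundant on the brush border of the proximal tubule.

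Between 17405493 and 23462056 counts per library were used. Total_WT replicate 1 was deposited with 200140709 counts and appears to include all 9 nuclear libraries, since 0 genes had fewer counts there than in those libraries added up. Subtracting them left 19034520 counts. In Total_Hom replicate 2, 7.12% of counts were assigned to Rn45s (precursor ribosomal RNA), against 0.11% to 1.02% elsewhere. The median squared difference between libraries of a group was 1.27 to 1.84 times counting noise, and 4.28 and 4.32 times in pairs with that library. The biological coefficient of variation was 3.05% in the nuclear fit and 3.9% in the total fit. The p-values rest on this small spread and cannot be taken to cover variation among animals. The sample labels named the material as mouse tissue and the series text named podocytes, but 10 proximal tubule markers took 1.29% to 1.64% of the counts as group means and 8 podocyte markers 0.0235% to 0.0484%. Xist, the RNA that coats the inactive X chromosome, averaged 516 CPM (counts per 1000000 counts of a library, scaled by TMM factors) in Nuclear_Het, 504 in Nuclear_Hom and 346 in Total_WT, and 0.538, 0.624 and 1.25 CPM in Nuclear_WT, Total_Het and Total_Hom. The summed CPM of 4 Y-linked genes was 151 to 164 in the libraries of Nuclear_WT, Total_Het and Total_Hom and 0.453 to 2.94 in the others. Genotype and sex therefore cannot be told apart in any comparison with WT, nor fraction and sex within a genotype. Hom against Het within a fraction sets libraries of like Xist level against each other.

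Ren1, the gene of renin, was all but missing from the counts. A single read was assigned to it in the 18 libraries together, in Nuclear_Het replicate 3, and 17 libraries held 0. Over all libraries this is 0.00284 CPM, with an exact 95% Poisson interval of 7.19e-05 to 0.0158 CPM that covers counting error only. In 1 library, a count of 0 allows up to 0.131 to 0.187 CPM (3 counts). The table also lists Ren2, a near-identical second renin gene that some mouse strains, 129 among them, carry beside Ren1, and it held 0 counts in every library. How reads that fit both rows were counted is not given in the sources used here, so the level of renin transcripts is uncertain and not detectable in these counts. Genes that renin-producing cells express, though not they alone, were counted in the same libraries, and their levels do not show whether such cells were sampled. Akr1b7, an aldo-keto reductase expressed by mouse renin cells, averaged 1.45 CPM over the 18 libraries, and Gja5, the connexin 40 of juxtaglomerular and arteriolar cells, averaged 5.86 CPM. Ren1 did not pass the filter on low counts, so 5 of the 6 genes were tested.

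Promoter windows of Agt, Ace and Enpep are shown because Ace and Enpep moved most across the groups and Agt, the precursor of angiotensin, moved differently. They run from 250 bases before to 50 bases after the transcript start (RefSeq, GRCm38.p6), 5′ to 3′ on the gene's strand. Matches to TATAAA, the TATA box core, on either strand are in capitals, and a match on the opposite strand reads TTTATA.
Agt, chr8:124569657-124569956, minus strand: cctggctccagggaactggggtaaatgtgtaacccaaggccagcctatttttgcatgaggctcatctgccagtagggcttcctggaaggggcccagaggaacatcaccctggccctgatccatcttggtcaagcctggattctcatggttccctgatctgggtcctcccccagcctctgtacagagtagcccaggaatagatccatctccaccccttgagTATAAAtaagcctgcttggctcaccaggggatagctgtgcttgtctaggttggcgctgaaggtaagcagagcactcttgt
Ace, chr11:105967698-105967997, plus strand: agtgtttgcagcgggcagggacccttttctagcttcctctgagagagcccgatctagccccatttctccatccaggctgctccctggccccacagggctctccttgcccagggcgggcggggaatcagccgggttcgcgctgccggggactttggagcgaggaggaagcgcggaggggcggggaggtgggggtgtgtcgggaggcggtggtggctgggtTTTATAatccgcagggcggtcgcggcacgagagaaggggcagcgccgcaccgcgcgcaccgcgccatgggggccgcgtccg
Enpep, chr3:129332700-129332999, minus strand: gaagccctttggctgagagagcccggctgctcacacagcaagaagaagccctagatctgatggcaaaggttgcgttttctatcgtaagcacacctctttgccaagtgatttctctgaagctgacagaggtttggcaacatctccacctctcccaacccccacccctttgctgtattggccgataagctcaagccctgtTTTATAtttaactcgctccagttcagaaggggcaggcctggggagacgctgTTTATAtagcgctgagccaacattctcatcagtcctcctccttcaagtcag
The match in Agt begins at -30 from the start on the gene's strand. In Ace it begins at -31 and lies on the opposite strand. Enpep has matches on the opposite strand at -52 and -1. Of 32851 RefSeq promoter windows of this length, 13.6% hold TATAAA on either strand. The core motifs GTTAAT of HNF1 (in 7.1% of all windows) and TGTTCT of the androgen and glucocorticoid receptors (19%), and the cAMP response core TGACGT (7.51%), were searched on both strands and are not in these 3 windows. Of the 6 genes, 5 have an entry in this promoter table.

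Agt, the substrate of renin, varied little, with a highest group mean 1.52 times the lowest. In nuclear RNA its libraries held 102, 103 and 98.9 CPM in Nuclear_WT, 71.8, 67.5 and 65.4 in Nuclear_Het and 87.5, 90.1 and 86.2 in Nuclear_Hom. In total RNA they held 89.8, 82.3 and 91.4 CPM in Total_WT, 79.4, 82.7 and 79.8 in Total_Het and 103, 106 and 102 in Total_Hom. The 3 nuclear groups did not overlap, with WT highest and Het lowest. In total RNA the Hom libraries lay above all others, while 1 Total_WT library lay within the range of Total_Het. Total_Hom and Nuclear_WT overlapped at the top of the order of 6 groups and Nuclear_Het lay alone at the bottom.

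Ace, the enzyme that makes angiotensin II, had the widest range of the genes tested, 3.17 times between the highest and the lowest group. It held 292, 289 and 289.9 CPM in the Nuclear_WT libraries, 183, 193 and 187 in Nuclear_Het and 253, 255 and 239 in Nuclear_Hom. It held 303, 297 and 299.7 CPM in the Total_WT libraries, 444, 452 and 452 in Total_Het and 143, 144 and 138 in Total_Hom. None of the 6 groups overlapped its neighbour in the order Total_Het, Total_WT, Nuclear_WT, Nuclear_Hom, Nuclear_Het, Total_Hom. The mutant groups of total RNA thus held both ends of that order.

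Enpep, which degrades angiotensin II, was high in Total_Het and Nuclear_WT and at a common low level in 3 groups. Its libraries held 344, 345 and 346 CPM in Nuclear_WT, 167, 170.1 and 171 in Nuclear_Het and 199, 202 and 203 in Nuclear_Hom. They held 169, 167 and 165 CPM in Total_WT, 399, 403 and 407 in Total_Het and 169.5, 166 and 162 in Total_Hom. Nuclear_Het overlapped Total_WT, and Total_WT overlapped Total_Hom, while the other neighbours in the order did not overlap. The 2 groups highest in Enpep were also the 2 highest in the summed androgen-responsive tubule genes Kap, Slco1a1 and Cyp7b1, at 24100 CPM in Total_Het and 15100 CPM in Nuclear_WT. Those genes summed to 5410 CPM in Total_WT and to 1630, 1950 and 1940 CPM in Nuclear_Het, Nuclear_Hom and Total_Hom, and their part in the Enpep values was not tested. Kap made up most of these sums, and the other 2 genes ran against it between Total_WT and Total_Hom. Slco1a1 held 1.17 CPM in Total_WT and 47.3 in Total_Hom, and Cyp7b1 held 7.50 and 64.7.

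Mme, the neprilysin gene, was by CPM highest in WT and lowest in Hom among the groups of total RNA. Total_WT also differed from both mutant groups in Xist level. The Total_WT libraries held 336, 345 and 339 CPM, Total_Het 216, 225 and 219, and Total_Hom 174, 165 and 174. Nuclear_WT held 295, 305 and 308 CPM, Nuclear_Het 259, 257 and 269, and Nuclear_Hom 292, 296 and 289. All neighbours were apart in the order Total_WT, Nuclear_WT, Nuclear_Hom, Nuclear_Het, Total_Het, Total_Hom, except Nuclear_WT and Nuclear_Hom, which overlapped.

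Agtr1a, the receptor gene, was the least abundant of the 5. It held 54.2, 54.1 and 51.9 CPM in Nuclear_WT, 41.0, 41.5 and 42.0 in Nuclear_Het and 44.9, 44.0 and 46.1 in Nuclear_Hom. Total_WT held 56.1, 54.3 and 53.2 CPM, Total_Het 51.9, 53.9 and 50.01, and Total_Hom 39.1, 38.8 and 37.1. Nuclear_WT, Total_WT and Total_Het overlapped at the top, followed by 3 separate groups with Total_Hom lowest.

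**Figure D1:**
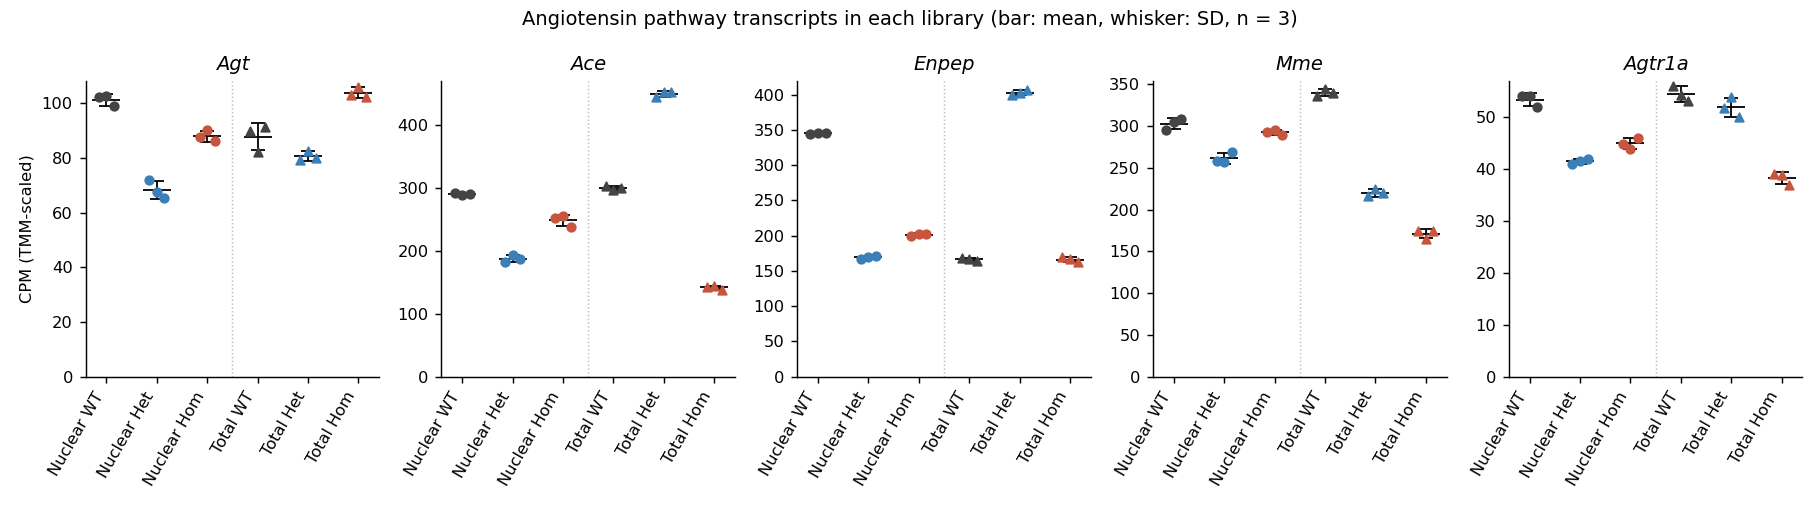
CPM of the 5 genes tested (vertical axes from 0, 1 panel per gene) in each of 18 libraries by group, with circles for nuclear and triangles for total RNA, a bar for the mean and whiskers for the SD (n = 3). Ace and Enpep peaked in Total_Het at 450 and 403 CPM, while Mme and Agtr1a were lowest in Total_Hom at 171 and 38.3 CPM.

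Divided by the gene length in the table, the transcripts were of similar abundance. Averaged over the 18 libraries, Enpep stood at 57.5, Ace at 51, Agt at 48.0 and Mme at 41.4 CPM per kilobase, with Agtr1a lower at 20.8. The order changed with the group. Per length, Ace was 2.47 ± 0.033 times Mme in Total_Het (SD, n = 3) and 0.868 ± 0.036 times Mme in Nuclear_Het. Mme was 1.34 ± 0.029 times Enpep in Total_WT and 0.360 ± 0.0069 times Enpep in Total_Het. Such ratios within a library do not depend on how libraries are scaled.

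In nuclear RNA, Hom was compared with WT, a comparison in which genotype and sex cannot be told apart. Enpep fell most, by 0.77 ± 0.03 on the log2 scale (SE), to 0.585 times the WT level (edgeR adjusted p = 4.13e-44). Ace fell by 0.22 ± 0.03 (edgeR adjusted p = 3.47e-11), Agtr1a by 0.25 ± 0.04 (1.49e-06) and Agt by 0.20 ± 0.04 (1.85e-06). Mme did not pass (log2 -0.05 ± 0.03, edgeR adjusted p = 0.111). In all, 4 of 5 genes fell and 0 rose, beside 27.8% of all genes tested that fell and 26.5% that rose. The proximal tubule markers fell in 7 of 10 and rose in 2, their sum going from 17400 to 17600 CPM in the Nuclear_WT libraries to 15200 to 15700 in Nuclear_Hom, with 0 of 10 markers at 0. The androgen-responsive genes fell in 3 of 3, their sum averaging 15100 CPM in Nuclear_WT and 1950 in Nuclear_Hom. The part of either list in these falls was not tested. With library totals in place of TMM factors the call for Agt was lost (log2 -0.08), and Mme was called higher (0.07).

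Het against WT in nuclear RNA gave larger falls. Enpep dropped by 1.03 ± 0.03 on the log2 scale, to 0.491 times WT (edgeR adjusted p = 3.35e-53), and Ace by 0.63 ± 0.03 (edgeR adjusted p = 5.70e-36). Agt fell by 0.57 ± 0.04 (edgeR adjusted p = 3.06e-24), Agtr1a by 0.36 ± 0.05 (3.94e-11) and Mme by 0.21 ± 0.03 (3.43e-11). All 5 genes tested fell, against 31.7% of all genes that fell and 32.8% that rose. Both this and the previous comparison use the Nuclear_WT libraries, and in both genotype and sex cannot be told apart. The androgen-responsive genes again fell in 3 of 3, to a mean sum of 1630 CPM in Nuclear_Het, and their part was not tested. All 10 proximal tubule markers fell here, to a sum of 12100 to 12200 CPM, and all 7 immune markers rose, from a sum of 434 to 444 CPM in the Nuclear_WT libraries to 1290 to 1360 in Nuclear_Het, with none (0) of either list at 0. Their part was not tested, and in bulk samples fewer cells of a type and less RNA per cell cannot be told apart. The call for Mme was lost with library totals alone (log2 -0.03).

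Between the mutant genotypes in nuclear RNA, whose libraries had like Xist levels, all 5 genes were higher in Hom than in Het, beside 21.4% of all genes called higher and 21.8% lower. Ace was 1.32 times the Het level (log2 0.41 ± 0.03, edgeR adjusted p = 5.36e-23) and Agt 1.29 times (0.36 ± 0.04, 8.76e-14). Enpep was higher by log2 0.25 ± 0.03 (edgeR adjusted p = 4.32e-13) and Mme by 0.16 ± 0.03 (2.02e-07). Agtr1a passed narrowly (log2 0.11 ± 0.05, edgeR adjusted p = 0.0381). Of the proximal tubule markers 9 of 10 were higher in Hom and 0 lower, and all 7 immune markers were lower. Of the androgen-responsive genes, Kap was higher (log2 0.27 ± 0.04), and Slco1a1 (-4.54 ± 0.16) and Cyp7b1 (-1.74 ± 0.09) were lower. The 4 Y-linked genes were called lower too, with a mean sum of 2.59 CPM in Nuclear_Het and 0.609 in Nuclear_Hom. The part of these lists was not tested. The call for Agtr1a was lost with DESeq2 (log2 0.12), library totals alone (0.06), a mean of at least 5 CPM (0.10) and only the 2 groups compared (0.11), and when Nuclear_Het replicate 1 (0.10), Nuclear_Het replicate 2 (0.115), Nuclear_Hom replicate 1 (0.12) or Nuclear_Hom replicate 3 (0.09) was left out.

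In total RNA the angiotensin genes of Hom moved apart from each other. Ace fell by 1.07 ± 0.02 on the log2 scale against WT, to 0.475 times its level (edgeR adjusted p = 4.20e-82), and Mme fell by 0.99 ± 0.03, to 0.505 times (1.13e-74). Agtr1a fell by 0.50 ± 0.05 (edgeR adjusted p = 9.63e-20), whereas Agt rose by 0.25 ± 0.03 (4.77e-11). Enpep did not pass (log2 0.00 ± 0.03, edgeR adjusted p = 0.983). Thus 1 gene of 5 rose and 3 fell, beside 30.6% and 31% of all genes. In total RNA, too, genotype and sex cannot be told apart in comparisons with WT. The fall of Ace was larger than that of 93.4% of all genes in absolute log2 value, and that of Mme larger than 92.4%. The proximal tubule sum was alike in both groups, at 13400 to 13600 CPM in Total_WT and 13100 to 13300 in Total_Hom, with 5 of 10 markers higher and 5 lower.

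In total RNA of Het, the enzymes that make and degrade angiotensin II were higher than in WT. Enpep rose by log2 1.27 ± 0.02, to 2.42 times WT (edgeR adjusted p = 1.44e-89), and Ace by 0.58 ± 0.02, to 1.5 times (1.83e-52). Mme fell by 0.63 ± 0.02 (edgeR adjusted p = 5.82e-52) and Agt by 0.12 ± 0.03 (0.00124). Agtr1a gave log2 -0.07 ± 0.04 and did not pass (edgeR adjusted p = 0.179). The 2 rises and 2 falls among 5 genes stand beside 30.9% of all genes that rose and 30.3% that fell. Proximal tubule markers rose in 8 of 10 and fell in 2, to a sum of 17400 to 17500 CPM. The androgen-responsive genes rose in 3 of 3, their sum averaging 5410 CPM in Total_WT and 24100 in Total_Het. All 8 podocyte, all 9 endothelial and all 5 distal nephron markers fell. The part of these lists was not tested. With Total_WT replicate 1 as deposited the call for Agt was lost (log2 -0.10), and with library totals alone Agtr1a was called lower (-0.25).

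Hom against Het in total RNA, again at like Xist levels, gave the widest gap of the genotype comparisons for Ace, which was 0.317 times the Het level (log2 -1.66 ± 0.02, edgeR adjusted p = 1.26e-106). Enpep was 0.414 times (log2 -1.27 ± 0.02, edgeR adjusted p = 1.82e-89). Agtr1a was lower by 0.43 ± 0.05 (edgeR adjusted p = 2.33e-15) and Mme by 0.36 ± 0.03 (1.88e-27), while Agt was higher by log2 0.37 ± 0.03 (2.52e-19). In all 1 gene of 5 was higher and 4 lower, beside 32.9% and 34.1% of all genes. Proximal tubule markers were lower in 7 of 10 and higher in 2. The androgen-responsive genes were lower in 3 of 3, their sum being 23500 to 24500 CPM in Total_Het and 1880 to 2000 in Total_Hom, and their part in these falls was not tested.

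**Figure D2:**
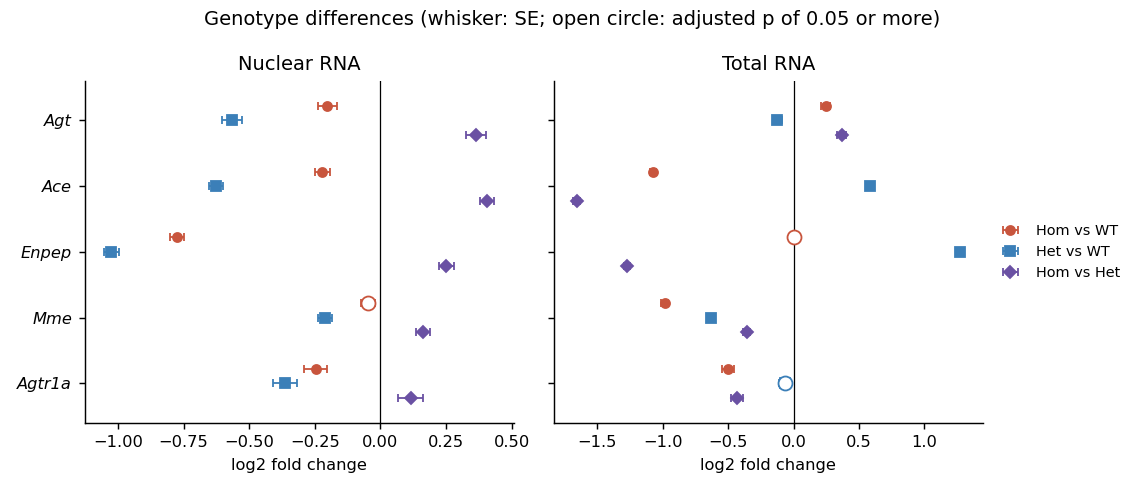
Log2 fold changes (horizontal axis, whiskers SE) of the 5 genes in nuclear (left) and total RNA (right) for Hom against WT, Het against WT and Hom against Het, with open circles where the edgeR adjusted p was 0.05 or more. Nuclear Hom against Het lay to the right of 0 for all 5 genes, while in total RNA only Agt did so for that comparison.

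Nuclear and total RNA were then set against each other within each genotype. In WT, Enpep was 2.07 times higher in nuclear RNA (log2 1.05 ± 0.03, edgeR adjusted p = 1.47e-77) and Agt was higher by 0.21 ± 0.04 (1.37e-07), while Mme was lower (log2 -0.17 ± 0.03, edgeR adjusted p = 3.03e-09). Ace (log2 -0.05 ± 0.03) and Agtr1a (-0.03 ± 0.04) did not pass (edgeR adjusted p = 0.102 and 0.588). This makes 2 of 5 genes higher and 1 lower, beside 30.9% and 30.8% of all genes. With library totals alone Ace (log2 -0.20) and Agtr1a (-0.19) were called lower and the call for Agt was lost (0.05), and with Total_WT replicate 1 as deposited the call for Mme was lost (-0.09). At a mean of at least 5 CPM Ace was called lower (-0.09).

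The fraction differences of Het ran the other way for Enpep. In nuclear RNA of Het, Enpep was 0.420 times (log2 -1.25 ± 0.03, edgeR adjusted p = 1.26e-87) and Ace 0.418 times (-1.26 ± 0.03, 3.39e-88) the total RNA level. Agtr1a (log2 -0.32 ± 0.05, edgeR adjusted p = 4.32e-10) and Agt (-0.24 ± 0.04, 1.29e-08) were lower too, and Mme was higher (0.25 ± 0.03, 3.56e-16). Here 1 of 5 genes was higher and 4 lower, beside 33.4% and 30.2% of all genes. In Hom, 4 genes of 5 were higher in nuclear RNA and 1 lower, beside 30.5% and 29.8% of all genes. These were Ace (1.75 times, log2 0.81 ± 0.03), Mme (1.71 times, 0.77 ± 0.03), Enpep (0.28 ± 0.03) and Agtr1a (0.23 ± 0.05), with Agt lower (log2 -0.24 ± 0.03, edgeR adjusted p = 9.17e-10). In each genotype the nuclear and total libraries differed in Xist level, so these differences and sex cannot be told apart. With library totals alone the call for Agt in Het was lost (log2 -0.04).

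**Figure D3:**
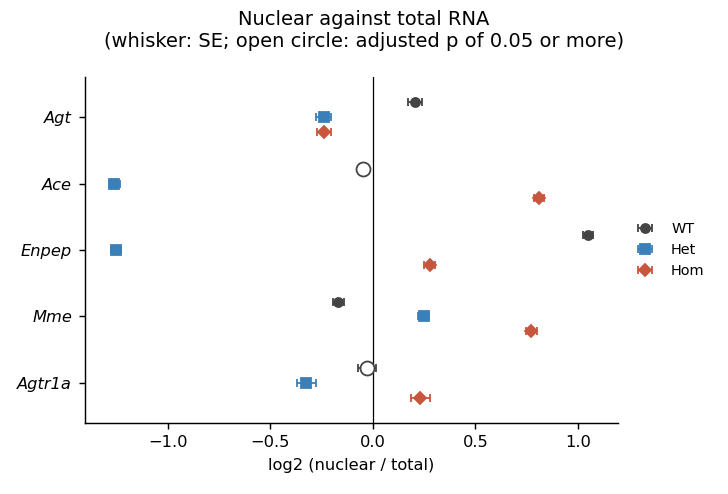
Log2 ratio of nuclear to total RNA (horizontal axis, whiskers SE) for the 5 genes in WT, Het and Hom, with open circles where the edgeR adjusted p was 0.05 or more. Ace stood at -0.05, -1.26 and 0.81 and Enpep at 1.05, -1.25 and 0.28 in WT, Het and Hom.

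The nuclear-to-total ratio was compared between genotypes by the interaction of fraction and genotype. Relative to WT, the ratio in Hom was higher for Mme, Ace and Agtr1a and lower for Enpep and Agt, 3 and 2 of 5 genes beside 28.4% and 27.7% of all genes. The ratio in Het was higher for 1 gene, Mme, and lower for 4, beside 37.8% and 32.9% of all genes. Enpep had the largest of these changes, a ratio 0.203 times that of WT (log2 -2.30 ± 0.04, edgeR adjusted p = 5.81e-103). Hom against Het gave 4 genes higher and 0 lower, beside 31.7% and 31.9% of all genes, led by Ace at 4.20 times (log2 2.07 ± 0.04, edgeR adjusted p = 5.38e-96). Agt did not pass there (log2 0.00 ± 0.05, edgeR adjusted p = 0.995) although it was called lower at -0.21 with library totals alone. The comparisons share libraries and are not independent of each other. In WT the nuclear libraries held little Xist and the total libraries much, and in Het and Hom the reverse. In the ratios against WT, a difference between the sexes would thus enter from both fractions. Genotype, fraction and sex cannot be told apart there. With library totals alone the ratio of Het to WT kept 3 calls, those of Agt (log2 -0.09) and Agtr1a (0.06) being lost, and with Total_WT replicate 1 as deposited the call for Agtr1a in Hom against WT was lost (0.16).

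Set against the proximal tubule markers of the same library, part of the differences shrank and part did not. Ace, per 1000 counts of the 10 markers, stood at 16.6 ± 0.0625 in Nuclear_WT (SD, n = 3), 15.5 ± 0.420 in Nuclear_Het and 16.1 ± 0.462 in Nuclear_Hom, so that Hom and WT overlapped. Agt stood at 5.79, 5.61 and 5.70 in the same groups, all overlapping. Enpep still separated, at 19.7 ± 0.186 in Nuclear_WT against 13.9 ± 0.212 in Nuclear_Het and 13.1 ± 0.299 in Nuclear_Hom. Relative to these markers Mme was higher in both nuclear mutant groups (21.5 and 19.0) than in Nuclear_WT (17.3). In total RNA, Ace stood at 22.3 in WT, 25.8 in Het and 10.8 in Hom, and Mme at 25.3, 12.6 and 13.0, with Het and Hom overlapping for Mme. Enpep was at 12.4 in Total_WT and 12.6 in Total_Hom, which overlapped, and at 23.1 in Total_Het. Agtr1a, lower in Nuclear_Het than in Nuclear_WT by CPM, was higher relative to the markers, at 3.42 ± 0.0579 against 3.05 ± 0.0582 with no overlap. In total RNA it stood at 4.05 in WT, 2.98 in Het and 2.91 in Hom, a log2 difference of -0.45 between Het and WT beside -0.07 by CPM. Agt stood at 6.53 in Total_WT, 4.63 in Total_Het and 7.88 in Total_Hom, a log2 difference of -0.50 between Het and WT beside -0.12 by CPM. These ratios were not tested, and the markers themselves moved in different directions in total RNA and in nuclear Hom against WT. In nuclear Hom against WT they ran from log2 -1.21 for Slc22a6 to 0.55 for Slc13a3. In nuclear Het against WT all 10 fell, from log2 -0.14 for Slc13a3 to -1.755 for Slc22a6.

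**Figure D4:**
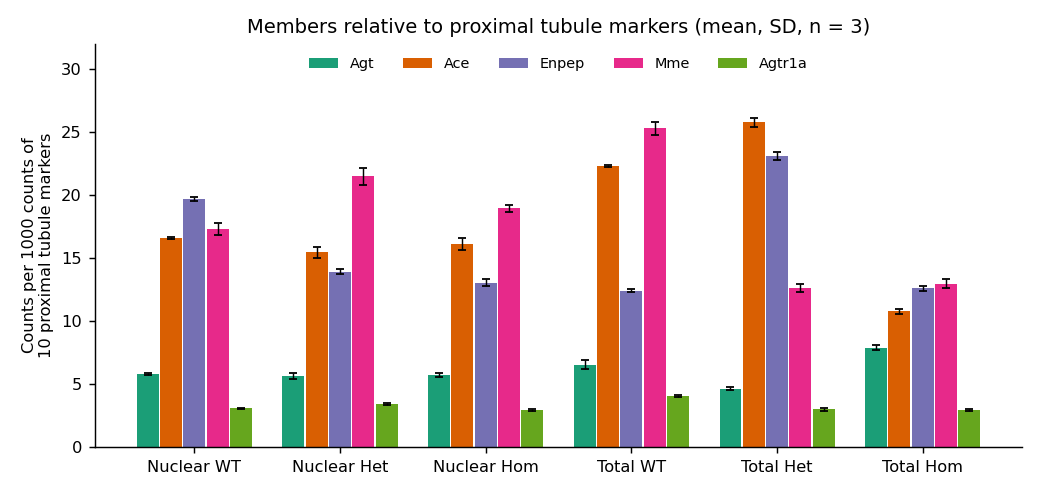
Counts of each gene per 1000 counts of 10 proximal tubule markers (vertical axis) by group, bars for the mean of 3 libraries and whiskers for the SD; bars of different genes are not scaled by gene length. The nuclear bars of Agt and Ace are close to level across genotypes, while Enpep falls from 19.7 in Nuclear_WT to 13.9 and 13.1.

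Other genes of the pathway were read from a list of 17, of which 13 passed the filter on low counts. Mas1, the receptor of angiotensin 1-7, was rare, at 3.54 ± 0.441 CPM in Total_Het, 1.65 ± 0.0976 in Nuclear_WT and 0.311 to 0.733 in the means of the other 4 groups. Anpep, the aminopeptidase N that trims angiotensin III, was highest in Total_Het, at 227 ± 6.12 CPM, and lowest in Total_Hom (124 ± 2.74) and Nuclear_Het (124 ± 2.46), whose libraries overlapped. Rnpep, aminopeptidase B, was lowest in Total_Hom, at 38.7 ± 2.78 CPM.

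Over this list, nuclear Hom against WT had 1 rise and 8 falls among 13 genes, beside 26.5% and 27.8% of all genes (median log2 -0.29, beside 0.02 over all genes). Nuclear Het against WT had 1 rise and 9 falls, beside 32.8% and 31.7% (-0.30, beside 0.02). The rise was that of Prcp, a carboxypeptidase that cuts angiotensin II, in both, at log2 0.15 ± 0.04 and 0.20 ± 0.04 (edgeR adjusted p = 0.00238 and 3.03e-05). Nuclear Hom against Het gave 3 higher and 1 lower of 13, beside 21.4% and 21.8% of all genes. Total Het against WT had 9 rises and 2 falls, beside 30.9% and 30.3% of all genes (median log2 0.38, beside -0.01), with Mas1 at 3.31 ± 0.29. Total Hom against WT had 6 rises and 4 falls, beside 30.6% and 31%. Mutant libraries held more Xist than WT in nuclear RNA and less in total RNA, so opposite directions in nuclear and total RNA cannot be told apart from sex. Total Hom against Het had 1 gene higher and 10 lower, beside 32.9% and 34.1% (median log2 -0.39, beside 0.01). The lower genes in that last comparison included Anpep (log2 -0.87 ± 0.03), Nln, the neurolysin peptidase (-0.66 ± 0.05), and Agtrap, which encodes a protein that binds the type 1 receptor (-0.32 ± 0.03). Atp6ap2, the prorenin receptor and a V-ATPase accessory subunit, fell in total RNA of Het against WT (log2 -0.34 ± 0.03, edgeR adjusted p = 1.30e-20) and of Hom against WT (-0.25 ± 0.03, 1.67e-13), and its nuclear values did not pass in Hom (log2 -0.03 ± 0.03, edgeR adjusted p = 0.430) or Het (0.01 ± 0.03, 0.830) against WT. Lnpep, which encodes the angiotensin IV binding aminopeptidase, had group means of 28.4 to 31.1 CPM.

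**Figure D5:**
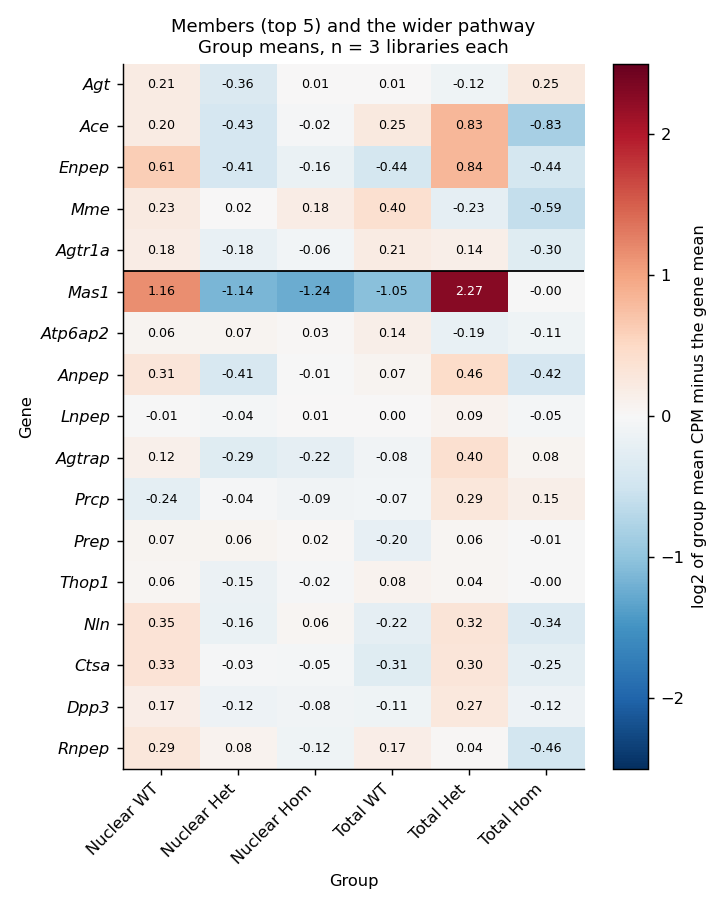
Log2 of the group mean CPM minus the gene's mean over the 6 groups (color, value in each cell) for the 5 members above the line and 12 further pathway genes below it, with 3 libraries per group. All genes drawn but Agt, Mme, Atp6ap2, Lnpep and Prcp have positive values in both Nuclear WT and Total Het, and Lnpep lies between -0.05 and 0.09.

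The renin cell and renin release list had all 12 genes above the filter. They were Akr1b7, Gja5, Adrb1, Ptger4, Ptgs2, Nos1, Adora1, Casr, Rbpj, Slc12a1, Pde3b and Crebbp. Slc12a1 is also in the distal nephron list, so the counts of this list do not describe renin cells alone. In nuclear RNA 9 rose and 0 fell in Hom against WT, beside 26.5% and 27.8% of all genes (median log2 0.31, beside 0.02 over all genes). In nuclear Het against WT 9 rose and 1 fell, beside 32.8% and 31.7% (0.58, beside 0.02). In total RNA 3 rose and 7 fell in Hom against WT, beside 30.6% and 31% (-0.23, beside 0.00), and 1 rose and 10 fell in Het against WT, beside 30.9% and 30.3% (-0.65, beside -0.01). Mutant libraries held more Xist than WT in nuclear RNA and less in total RNA. The opposite directions of nuclear and total RNA therefore cannot be told apart from sex. Gja5 rose in nuclear Hom by log2 0.64 ± 0.13 (edgeR adjusted p = 2.22e-05) and fell in total Hom by 0.31 ± 0.11 (0.0132). Ptgs2, the cyclooxygenase 2 of the macula densa that drives renin release, rose in nuclear Hom (log2 0.74 ± 0.24, edgeR adjusted p = 0.00623) and fell in total Hom by 1.27 ± 0.20 (1.42e-08). Akr1b7 did not pass in nuclear Hom (log2 -0.39 ± 0.23, edgeR adjusted p = 0.140) and fell in total Hom by 0.87 ± 0.29 (0.00614). Markers of mesangial and vascular smooth muscle cells summed to 239 to 244 CPM in the Nuclear_WT libraries, 353 to 359 in Nuclear_Het and 282 to 294 in Nuclear_Hom, with 0 of 8 markers at 0. In total RNA they summed to 305 to 313 CPM in WT, 205 to 214 in Het and 266 to 279 in Hom. Podocyte markers moved with the list in Het, with 7 of 8 higher in nuclear RNA (median log2 0.55) and 8 of 8 lower in total RNA (-0.97). The part of either list was not tested.

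Each member was compared with 11224 genes that averaged 5 CPM or more and were counted in every library, leaving out members and predicted gene models. The genes most like each member were those with the smallest root-mean-square difference of centred log2 group means over the 6 groups. For Enpep these were Phyh, the phytanoyl-CoA hydroxylase of peroxisomes, and Selenop, the plasma selenoprotein, at differences of 0.049 and 0.059, beside a spread of 0.53 for Enpep itself. Phyh had group means of 704 CPM in Nuclear_WT and 852 in Total_Het, and of 343 to 440 in the other 4 groups. For Ace they were Bdh1 (0.12), a ketone body dehydrogenase, and Fam132a (0.13), beside a spread of 0.53. Mme was closest to Oxgr1 (0.049), the oxoglutarate receptor, and Tmem35a (0.061), beside 0.33. Agtr1a was closest to Smpd1 (0.041), an acid sphingomyelinase, and Prkce (0.042), but 147 genes lay within 0.1 of it. Agt was closest to Galnt18 and Gpx4, a phospholipid peroxidase (0.078 each, beside a spread of 0.20). Between the members themselves the smallest difference was 0.25, for Agtr1a and Mme, and the largest 0.62, for Mme and Enpep.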

How the data were processed

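The authors deposited raw counts in 1 table, with gene symbols as rows and each gene's length beside them. Per the submitters' processing notes, the tools were STAR 2.5.2b, CASAVA, DESeq2 and featureCounts and the build was mm9. The annotation and strand setting are not given in the sources used here. Libraries were made from TRIzol RNA with a KAPA stranded mRNA kit, per the labels' protocols. Total_WT replicate 1 was reduced by the sum of the 9 nuclear columns.

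Tests were run with the quasi-likelihood method of edgeR 4.0.16 under R 4.3.3 (TMM scaling, filterByExpr, robust fit), with Benjamini-Hochberg adjustment over all genes and a threshold of 0.05. Genotypes were compared in a fit of the 9 libraries of that fraction (15112 nuclear and 15051 total genes), and fractions and interactions in a fit of all 18 libraries (15410 genes). CPM used TMM factors of all 18 libraries, and SE come from the fits. The test script was checked on simulated counts. The 6 members were named throughout, listed genes from a mean of 1 CPM, and the 2 genes most alike per member. A gene of the wider pathway list that entered its counts is not reported here. Members and lists were chosen with earlier results of these data known. Alternatives included DESeq2 1.42.0, other scalings and filters, and leaving out each library. Depth limits precision for rare transcripts such as Ren1 and Mas1.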

Additional observations from a re-analysis of the deposited data

Results flagged for a closer look

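The change between genotypes differed between nuclear and total RNA by the test of the interaction itself for 14 values of the 5 genes, in log2 units. Hom against WT gave 0.86 for Ace, 0.94 for Mme, 0.26 for Agtr1a, -0.44 for Agt and -0.77 for Enpep. Het against WT gave -1.21 for Ace, 0.42 for Mme, -0.30 for Agtr1a, -0.44 for Agt and -2.30 for Enpep. Hom against Het gave 2.07 for Ace, 0.52 for Mme, 0.55 for Agtr1a and 1.53 for Enpep. Of all genes tested, 28.4% were called higher and 27.7% lower by this test for Hom against WT. The shares were 37.8% and 32.9% for Het against WT, and 31.7% and 31.9% for Hom against Het. The edgeR adjusted p of the 14 values ran from 5.81e-103 to 2.16e-04. Nuclear and total libraries of a genotype differed in Xist level, so fraction and sex cannot be told apart in any of them. In the values against WT, genotype and sex cannot be told apart either.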

How the results depend on the processing

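Of 975 values of 60 results for single genes under the alternatives, 934 kept direction and side of the threshold, 16 lost a call, 4 gained one and 21 changed sign. Library totals alone moved the median of all genes by 0.12 (nuclear Hom against WT) to 0.36 (ratio Het against WT) in absolute log2 value in 9 of 12 comparisons, and the share of higher calls went, for example, from 48.8% to 73.8% in nuclear Hom against WT, from 50.9% to 75.9% in nuclear Het against WT, from 50.5% to 24.5% in total Het against WT and from 53.4% to 78.6% for the ratio of Het to WT, where 3 of the genes were called in place of 5. Changes of sign with library totals alone were those of Mme in nuclear Hom against WT (log2 0.074), Enpep in total Hom against WT (-0.025), Agtr1a in the ratio Het against WT (0.062) and Agt in the ratio Hom against Het (-0.21). With Total_WT replicate 1 as deposited they were Enpep in total Hom against WT (-0.16), Agtr1a in total Het against WT (0.017), Ace and Agtr1a in nuclear against total WT (0.053 and 0.069) and Agt in the ratio Hom against Het (-0.0008). Enpep in total Hom against WT stood at -0.0051 in 1 fit of all 18 libraries and at -0.013 to 0.019 with each library left out, and Agt in the ratio Hom against Het at -0.045 from a mean of 5 CPM, -0.0008 without Rn45s and -0.028 to 0.040 with each library left out. Apart from Mme and the ratio of Agt with library totals alone, no value of changed sign passed the threshold. Deviations of same-numbered libraries correlated at -0.12 to 0.087 in nuclear and -0.13 to 0.066 in total RNA. Over both fractions they correlated at -0.13 to 0.23, with 3 of 45 pairs over 0.1. This does not settle whether replicate numbers pair the samples. Libraries of a group differed little beyond counting noise (median 1.27 to 1.84 times it, apart from Total_Hom replicate 2), so even paired samples could correlate weakly. With a replicate block 8242 genes were called in nuclear Hom against WT in place of 8213, and no call of the 5 genes changed.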

Other observations

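Of 8 listed genes of the aldosterone arm 6 were tested. All 6 fell in total Het against WT, beside 30.3% of all genes, and all 6 were higher in total Hom than in Het, beside 32.9%. In total Hom against WT 3 rose and 1, Hsd11b2, fell, beside 30.6% and 31%. The distal nephron, podocyte and endothelial lists moved with these genes in total Het against WT and only in part in the other comparisons of total RNA. In total Het against WT 5 of 5 distal nephron, 8 of 8 podocyte and 9 of 9 endothelial markers fell. Proximal tubule markers went the other way there, with 8 of 10 rising and 2 falling, and immune markers were mixed, with 2 rising and 1 falling. In total Hom against Het 8 of 8 podocyte and 8 of 9 endothelial markers were higher. Of the distal nephron markers 3 were higher there and 2 lower. In total Hom against WT 2 distal nephron markers rose and 3 fell. Their part was not tested. Hsd11b2, which inactivates glucocorticoids in cells that respond to aldosterone, held 253 ± 6.36 CPM in Total_WT (SD, n = 3), 127.5 ± 2.57 in Total_Het and 214 ± 0.406 in Total_Hom. Sgk1, a kinase induced by aldosterone, fell in total Het by 0.68 ± 0.03 on the log2 scale (edgeR adjusted p = 2.93e-49). Scnn1g, a subunit of the epithelial sodium channel, fell there by 0.65 ± 0.05 (edgeR adjusted p = 9.32e-24). In nuclear RNA 2 of the 6 rose and 3 fell in Hom against WT, beside 26.5% and 27.8% of all genes.

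Among 7 tested genes of the kinin and natriuretic peptide systems, Cpn1, a carboxypeptidase that trims kinins, ranged most. In nuclear RNA it held 5.29 ± 0.158 CPM in WT, 29.3 ± 0.933 in Het and 27.9 ± 1.93 in Hom. In total RNA it held 20.2 ± 0.693 CPM in WT, 3.71 ± 0.164 in Het and 13.9 ± 0.673 in Hom. Its low groups, Nuclear_WT and Total_Het, were the 2 groups where Enpep was highest.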
